A study of Leucocroton havanensis with 4 samples.

Results

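The comparison described here is root with nickel against root without nickel in Leucocroton havanensis, a shrub of the Euphorbiaceae that is endemic to Cuba and hyperaccumulates nickel. Each group was 1 RNA-seq library of roots from plantlets kept in vitro for 6 weeks after germination on Murashige and Skoog agar, either with nickel (500 mg/L NiSO4, as the growth protocol states it for the series) or without it. The matching shoots gave 2 further libraries, and shoot with nickel is labelled as a re-analysis of an earlier library, so in shoot the effects of nickel and of the library's origin cannot be told apart. The labels do not say how many plantlets were pooled. Contigs, the assembled transcript sequences on which reads were counted, entered with 10 or more reads in either root library. These were 50290 of 65936 contigs, and 42757 of them reached 10 reads in both root libraries. At the threshold, 1577 contigs had a higher root count of exactly 10 (median log2 ratio 0.39) and were kept, and 1146 had exactly 9 (median log2 ratio 0.26) and were not.

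Hyperaccumulators take nickel up from the soil through the root, load it into the xylem and store most of it in the shoot, largely in vacuoles and bound to organic acids and other ligands. In Arabidopsis, nickel enters root cells in part through iron transporters of broad specificity. The root is therefore the organ that meets the metal first, and the comparison asks how far its transcripts differ when nickel is in the medium. The files give contigs by identifier only, so no contig could be assigned a gene, a length or a sequence, and the labelled organ could not be checked against marker genes.

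Root with nickel had 55660570 counted reads and root without nickel had 59802565. The shoot libraries had 98108920 reads with nickel and 84917997 without. With 1 library per group, no difference had a replicate check and no test was made; intervals are for counting error alone. Levels are in CPM, the read count relative to a library size scaled by TMM (trimmed mean of M values). They are not per unit of length, so levels are compared between libraries and not between contigs.

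The difference between the root libraries was small for well-measured contigs and consisted of many modest ratios. Among 13226 abundant contigs, here those with a mean of 10 CPM or more over the root libraries, 97.5% were less than 2-fold apart and the absolute log2 ratio had a median of 0.21. Counting error alone would give a median of about 0.033 at these depths. In the class from 10 to 100 CPM (11530 contigs), the central 90% of ratios ran from 0.64-fold to 1.33-fold. From 100 to 1000 CPM (1640 contigs) it ran from 0.66-fold to 1.22-fold, and at 1000 CPM or more (56 contigs) from 0.70-fold to 1.30-fold. The width thus changed little above 10 CPM, although counting error went on falling with depth.

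Below that level the ratios were wide. From 1 to 10 CPM (15028 contigs) the central 90% ran from 0.51-fold to 1.80-fold, and under 1 CPM (22036 contigs) from 0.38-fold to 3.79-fold. The spread left after counting error is taken out corresponded to a coefficient of variation per library of 37.1% under 1 CPM and 20.7% from 1 to 10 CPM. It was 12.5%, 11.6% and 12.4% in the classes from 10 to 100, 100 to 1000 and 1000 CPM or more. These values hold any effect of nickel and any variation between single libraries, which cannot be told apart. Sorting the contigs instead by their mean level in the shoot libraries, which the root ratio does not use, gave 12.4%, 12.8% and 12.96% in the same order of classes, against 36.9% and 20.8% in the classes under 1 and from 1 to 10 CPM.

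**Figure D1:**
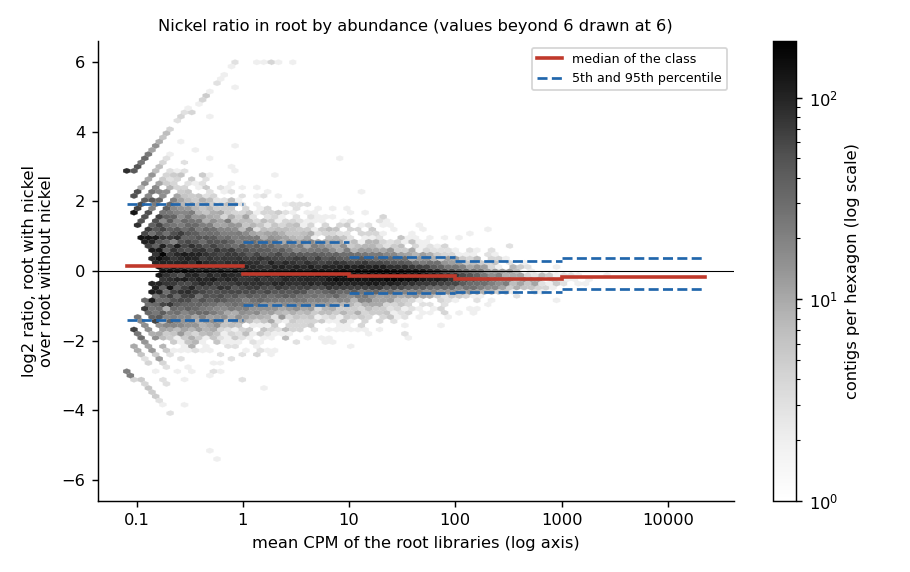
Each contig's log2 ratio of root with nickel over root without nickel (vertical) against its mean CPM in the root libraries (horizontal, log axis), with darker hexagons holding more contigs. Red lines mark the median and dashed blue lines the 5th and 95th percentiles of each abundance class, which run from -1.39 to 1.92 under 1 CPM and from -0.61 to 0.28 between 100 and 1000 CPM.

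The centre of the distribution depended on the scaling. With TMM over the 4 libraries the median log2 ratio was -0.14 for abundant contigs and -0.050 for all 50290. By total counts these medians were 0.0051 and 0.092. With TMM over the root libraries alone they were -0.071 and 0.021. A ratio of a single abundant contig that is no larger than these shifts has no firm direction.

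By a size rule of at least 4-fold with an exact 95% interval excluding folds below 1.5, 1034 contigs were higher and 420 were lower in root with nickel, which is 2.06% and 0.835% of the contigs tested and 2.89% together. Of these, 947 higher and 330 lower contigs were under 1 CPM, 79 and 79 were from 1 to 10 CPM, and 8 and 11 were above. None of the 1696 contigs at 100 CPM or more passed. The contigs past this rule held 1.07% of the difference between the libraries, as measured below in shares of reads.

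The excess of higher over lower contigs lay under 1 CPM with TMM, and it rested on few reads. By total counts that class had 1174 higher and 265 lower of 1291 and 334 in all. The 947 higher contigs had a median of 17 reads in root with nickel and 1 read in root without nickel. The 330 lower contigs had a median of 2 reads in root with nickel and 20 reads in root without nickel. Low counts were more often even numbers in root with nickel (61.6% of counts from 1 to 20) than in root without nickel (55.5%), and the part of this in the excess was not tested. With intervals from halved counts, 421 contigs were higher and 247 were lower over all classes.

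In shoot, the higher and lower contigs of low abundance had reads at different rates. They mostly entered through the root library where they were higher, with medians of 1 and 2 reads in the other. The shares below therefore describe these sets and are no independent support for them. At least 10 reads in shoot with nickel were found for 42.3% of the 947 higher contigs, for 85.8% of the 330 lower ones and for 76.6% of all contigs under 1 CPM. In shoot without nickel these shares were 32.3%, 62.1% and 63.9%. No read in either shoot library was found for 182 of the 947 higher contigs (19.2%), for 6 of the 330 lower ones (1.82%) and for 838 contigs of the class (3.80%).

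Contigs with 10 or more reads in 1 root library and none in the other are part of these higher and lower sets. They entered only through the library where they were high, so their shoot counts are no independent support either. Of the 50290 kept contigs, 369 had 10 or more reads in root with nickel and none in root without nickel, with a median of 13 reads and at most 397. The reverse was found for 91 contigs, with a median of 12 reads and at most 108. Of the 369, 357 were under 1 CPM and 12 from 1 to 10 CPM. Reads in shoot with nickel were found for 234 of the 369 (63.4%), and 117 (31.7%) had none in either shoot library. Of the 91, all under 1 CPM, every contig had reads in shoot with nickel and 80 had reads in shoot without nickel. No read in either shoot library was found for 3.80% of all contigs under 1 CPM and 1.40% of those from 1 to 10 CPM. The 0 of the 91 without a shoot read is thus near the share of its class. In the whole table, 2 contigs lacked reads in both libraries with nickel, whereas 1301 lacked reads in both libraries without nickel. The libraries behind the contig assembly are not stated in the labels or files used here, and their part in these counts was not tested.

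The contig with the interval farthest above 1 was Lhav_v2_contig_20894. It had 397 reads (6.42 CPM) in root with nickel and none in root without nickel, at least 128-fold higher when the zero is set at a floor of 3 reads (95% exact lower limit 104). In shoot it had none with nickel and 26 reads (0.353 CPM) without nickel, at least 11.98-fold lower when the zero is set at the same floor of 3 reads, with a 95% exact lower limit of 9.07. Its levels thus stood in opposite orders in the organs.

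The contig farthest below 1 was Lhav_v2_contig_2671. It had 9 reads (0.146 CPM) in root with nickel and 1530 reads (25.5 CPM) in root without nickel, which is 175-fold lower (95% exact interval of the fold 92.1 to 384). The shoot libraries had 7836 reads (77.0 CPM) with nickel and 1463 reads (19.9 CPM) without nickel. Root with nickel was thus the one library of the 4 where it was nearly absent. No other abundant contig of the root comparison was more than 8.22-fold apart, as computed with the prior count of 2.

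To see which contigs carry the difference, each library's reads on the 50290 contigs were set to 100% and the shares were compared. A total of 8.20% of the reads would have to move between contigs to turn one root library into the other, of which counting error alone would give about 0.986%. Contigs from 10 to 100 CPM held 38.0% of this difference, those from 100 to 1000 CPM held 35.3%, and the 56 at 1000 CPM or more held 14.6%. The 22036 contigs under 1 CPM, where most 4-fold ratios lay, held 2.55%. Measured against counting error, the difference was 2.13 times that amount under 1 CPM, 6.52 times from 10 to 100 CPM, 16.4 times from 100 to 1000 CPM and 60.1 times at 1000 CPM or more. This multiple grows with read number even where the relative spread is equal. The coefficient of variation beyond counting was 37.1% under 1 CPM and 12.4% at 1000 CPM or more.

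Modest ratios carried most of it. Contigs with an absolute log2 ratio under 0.25 by TMM held 28.9% of the difference, those from 0.25 to 0.5 held 34.0%, and those from 0.5 to 1 held 27.4%. Contigs between 2-fold and 4-fold held 8.63%. These bins use TMM ratios, whereas the difference is in shares of reads, and no split by total-count ratios was made. The contig with the largest part of the difference (3.08%) had a log2 ratio of 0.16 by TMM and 0.31 by total counts. The largest contributors were still numerous, since 1068 contigs, 2.12% of those tested, were needed for 50% of the difference and 11458 for 90%. Of these 1068, 120 were past 2-fold and 9 past 4-fold, and their median level was 167 CPM. All 1068 were at 12.8 CPM or more. Among all 13226 abundant contigs, those of 10 CPM or more, 337 (2.55%) were past 2-fold and 19 (0.144%) past 4-fold. The 1068 were ranked by size of difference, which favours larger ratios, so their counts only describe the set.

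**Figure D2:**
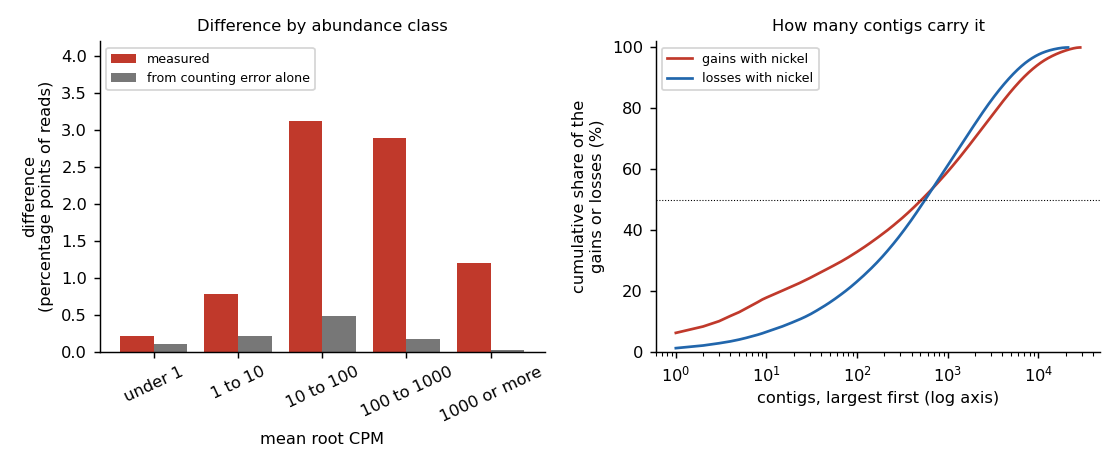
Left, percentage points of reads that differ between root with nickel and root without nickel in each class of mean root CPM (red), beside the amount from counting error alone (grey); the classes from 10 to 100 and 100 to 1000 CPM stand highest, at 3.12 and 2.89 points. Right, cumulative share of the gains (red) and losses (blue) with nickel over contigs ordered by size (log axis); gains start higher, with 17.8% in the first 10 contigs against 6.48% for losses, and both reach 50% after 518 and 566 contigs.

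The leading gains of share were larger than the leading losses. The 10 largest gains together made up 7.84% of all reads in root with nickel (95% Wilson interval 7.83% to 7.84%) and 6.38% in root without nickel (6.38% to 6.39%). They made up 17.8% of all gains. The 10 largest losses had 2.19% of all reads in root with nickel and 2.72% in root without nickel, and they made up 6.48% of all losses. Farther down the order this contrast was gone, with 6796 of 29005 contigs needed for 90% of the gains and 4816 of 21285 for 90% of the losses. The list of leading transcripts itself was much the same, with 90 of the 100 most abundant contigs shared by the root libraries, and 85 of 100 shared by the shoot libraries.

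The largest single gain was that of the most abundant contig, Lhav_v2_contig_15, which was named after its values were seen. It took 2.61% of the reads in root with nickel (95% Wilson interval 2.604% to 2.613%) and 2.10% in root without nickel (2.101% to 2.108%). That gain alone was 6.16% of all gains. Its log2 ratio was 0.16 with TMM and 0.31 by total counts, so it was far from the 2-fold size. In shoot it took 1.03% of the reads with nickel and 0.930% without nickel, and its shoot log2 ratio was -0.11 with TMM and 0.15 by total counts, so that its direction there turns with the scaling.

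Among the other leading gains, the second took 0.455% of reads in root with nickel and 0.283% in root without nickel, against 0.154% in shoot with nickel and 0.481% in shoot without nickel. The fourth took 0.378% and 0.237% in the same order of root libraries, and in shoot 0.116% with nickel and 0.512% without. The fifth and the sixth likewise had a higher share with nickel in root and a lower one in shoot. The third and the seventh, both among the most abundant contigs, had log2 ratios of -0.033 and -0.038 with TMM and 0.11 and 0.11 by total counts, so their direction flips with the scaling. Of the 10 largest gains, 5 were past 2-fold lower in shoot with nickel by TMM and 2 by total counts, and 0 were past 2-fold higher by either scaling. Over all abundant contigs, 6.85% were lower and 3.01% higher by TMM, and 4.36% and 4.61% by total counts.

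The largest loss was that of a contig with 0.248% of reads in root with nickel and 0.341% in root without nickel. Its share was also lower in shoot with nickel, at 0.339%, against 0.634% in shoot without nickel. The fourth largest loss belonged to a contig of the root, with 0.224% in root with nickel and 0.274% in root without nickel, beside 0.0045% in shoot with nickel and 0.0010% in shoot without nickel. The 10 largest losses had root log2 ratios from -0.87 to -0.22, and none was past 2-fold. In shoot, 2 of them were past 2-fold lower and 1 past 2-fold higher by TMM, whereas total counts gave 0 lower and 2 higher. The shares over all abundant contigs are those given above for the gains.

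**Figure D3:**
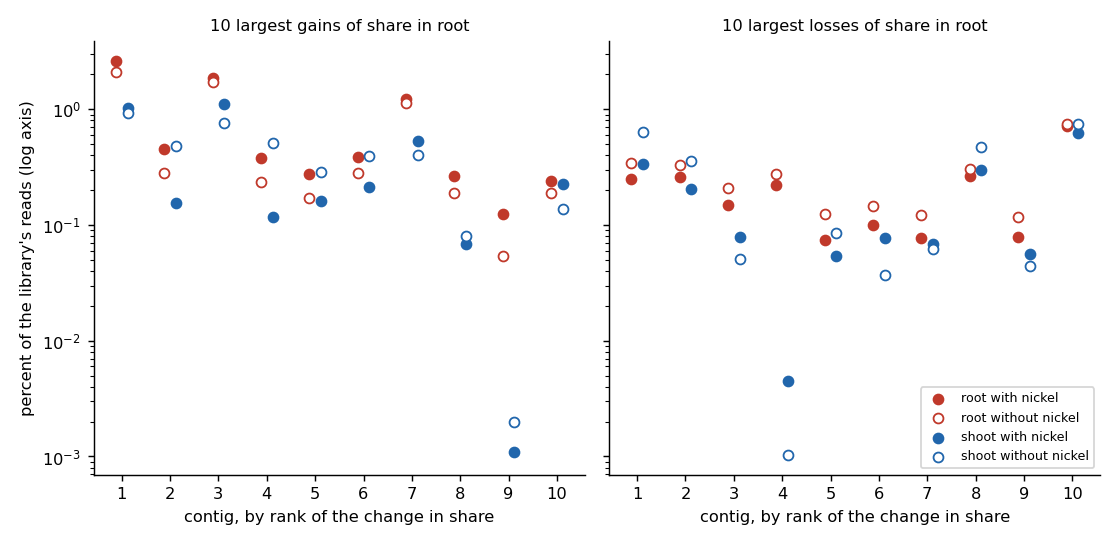
Percent of each library's reads (log axis) taken by the 10 contigs with the largest gain of share in root with nickel (left) and the 10 with the largest loss (right), for root (red) and shoot (blue), with nickel (filled) and without (open). Filled and open red points lie close together, with root ratios under 2-fold for all but the ninth gain. The blue points of the second gain, the fourth gain and the fourth loss lie far apart and in the opposite order to the red.

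The 56 contigs at 1000 CPM or more were about as steady in root as other abundant contigs. Their median absolute log2 ratio was 0.25, against 0.21 for all 13226. Their TMM-scaled log2 ratios ran from -0.71 to 0.54, with a median of -0.17. None was past 2-fold, against 2.55% of all abundant contigs. Together they held 16.4% of the kept reads in root with nickel and 15.5% in root without nickel. In shoot their log2 ratios ran from -2.40 to 1.86 with a median of -0.48, and 11 were past 2-fold lower and 1 past 2-fold higher by TMM, whereas total counts gave 4 lower and 2 higher. Of all abundant contigs, 6.85% were lower and 3.01% higher by TMM, and 4.36% and 4.61% by total counts. Library origin is part of these shoot ratios.

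A 2-fold size rule, with an interval excluding 1, served for the abundant contigs because 19 of them (0.144%) passed the 4-fold rule. By TMM, 114 abundant contigs were higher and 223 were lower in root with nickel, which is 0.862% and 1.69% of the 13226 and 2.55% together. The balance rested on the scaling: total counts gave 171 higher and 160 lower contigs, and TMM over the root libraries gave 140 higher and 198 lower ones. The 114 higher contigs held 2.64% of the difference in read shares and the 223 lower ones held 3.65%. The median level of the 114 was 25.9 CPM in root with nickel and 10.5 CPM in root without nickel. That of the 223 was 12.6 CPM in root with nickel and 31.3 CPM in root without nickel.

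The largest difference in CPM among the higher contigs past 2-fold was that of Lhav_v2_contig_20763. It had 69876 reads (1131 CPM) in root with nickel and 32492 reads (542 CPM) in root without nickel. The log2 ratio was 1.06 with a 95% exact interval from 1.04 to 1.08. In shoot it was at a far lower level, with 10.5 CPM with nickel and 23.1 CPM without nickel, and the log2 ratio was -1.13 with a 95% exact interval from -1.24 to -1.02. It was the ninth largest gain of share in root. By total counts its log2 ratio was 1.21 in root and -0.87 in shoot, so that the shoot ratio fell short of 2-fold.

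Among the lower contigs past 2-fold, Lhav_v2_contig_7410 had the largest difference in CPM. It had 9454 reads (153 CPM) in root with nickel and 18498 reads (309 CPM) in root without nickel. The log2 ratio was -1.01 with a 95% exact interval from -1.05 to -0.98. In shoot it had 79.3 CPM with nickel and 42.7 CPM without nickel, and the log2 ratio was 0.89 with a 95% exact interval from 0.84 to 0.96. By total counts the root ratio was -0.86, short of 2-fold, and the shoot ratio was 1.15, past it.

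The abundant contigs that were higher in root with nickel were often lower in shoot with nickel. Of the 114, 54 (47.4%) were past 2-fold lower in shoot with nickel and 11 (9.65%) were past 2-fold higher. Over all 13226 abundant root contigs the shares were 6.85% lower and 3.01% higher. The median shoot log2 ratio was -0.94 for the 114 and -0.17 for all abundant contigs. By total counts, 69 of 171 (40.4%) were lower in shoot, against 4.36% of all, and with DESeq2 size factors 57 of 109 (52.3%), against 8.61%. The root and shoot ratios share no library, but shoot with nickel carries its own library origin, and that part was not tested.

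The abundant contigs lower in root with nickel went both ways in shoot. Of the 223, 33 (14.8%) were past 2-fold lower in shoot with nickel and 31 (13.9%) were past 2-fold higher, with a median shoot log2 ratio of 0.00. Shoot ratios were positive for 108 and negative for 108. The median fell among the 7 contigs without a read in either shoot library, whose ratio is 0 through the prior count. By total counts, 13 of 160 were lower and 32 of 160 were higher, so which direction was more frequent depended on the scaling. Under both scalings these shares were above those of all abundant contigs, which by total counts were 4.36% lower and 4.61% higher.

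By TMM, the trend ran through the ratios short of 2-fold on the higher side. For root log2 ratios of 0.5 to 1 (339 contigs), 32.2% were past 2-fold lower in shoot with nickel and 6.49% were past 2-fold higher. For 0 to 0.5 (3387 contigs) these shares were 8.21% and 2.86%, and for -0.5 to 0 (8138 contigs) 4.10% and 1.77%. For -1 to -0.5 (1025 contigs) they were 9.56% and 9.07%.

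Many of the abundant root contigs past 2-fold had few reads in shoot. The median shoot level was 3.51 CPM with nickel and 6.00 CPM without nickel for the 114 higher ones. It was 5.30 CPM with nickel and 4.91 CPM without nickel for the 223 lower ones. The shoot medians of all abundant root contigs were 24.0 CPM with nickel and 27.1 CPM without. These sets are different contigs of unknown length, and their median mean root levels also differed, at 18.6 CPM for the 114, 21.4 CPM for the 223 and 29.2 CPM for all. A mean shoot level under 1 CPM was found for 16 of the 114 (14.0%), 57 of the 223 (25.6%) and 342 of all 13226 (2.59%).

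The shoot ratios were also taken for the 10679 contigs with a mean of 10 CPM or more in both organs. Of these, 38 were past 2-fold higher in root, and in shoot with nickel 16 of them were lower and 5 higher (42.1% and 13.2%). Another 92 were lower in root, and 21 of them were lower and 11 higher in shoot (22.8% and 11.96%). Over all 10679 contigs the shares were 5.12% lower and 1.82% higher.

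**Figure D4:**
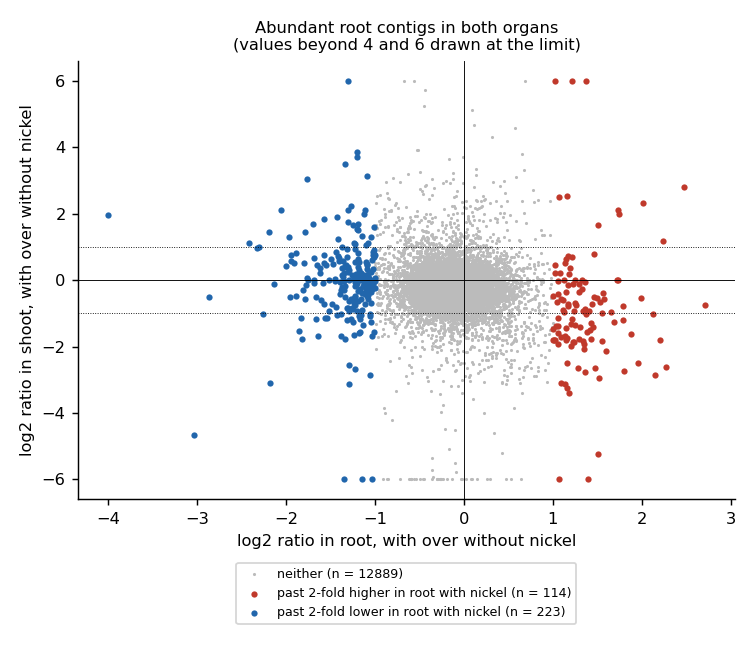
Log2 ratio with over without nickel in shoot (vertical) against that in root (horizontal) for the 13226 abundant root contigs; red and blue points are past 2-fold higher (114) and lower (223) in root with nickel, grey points neither, and dotted lines mark 2-fold in shoot. Of the red points, 54 are past 2-fold lower in shoot and 11 past 2-fold higher, whereas the blue points split into 33 and 31.

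The 19 abundant contigs past 4-fold were all under 100 CPM on average. Of the 8 higher ones, the largest ratio was that of a contig with 59.4 CPM in root with nickel and 9.08 CPM in root without nickel, and its shoot levels were 6.23 CPM with nickel and 10.5 CPM without. In shoot, 4 of the 8 were past 2-fold lower and 3 past 2-fold higher. Over all abundant contigs 6.85% were lower and 3.01% higher. Of the 11 lower ones, 2 were past 2-fold lower in shoot with nickel, 4 were past 2-fold higher, and 5 were under 1 CPM in shoot on average. These groups overlap, and most of the shoot calls rest on few reads. The higher ones had 7836 and 1463, 45 and 14, 57 and 14, and 139 and 22 reads in shoot with and without nickel. The lower ones had 0 and 15, and 632 and 11732. The second largest decrease among the 11, 4.21 CPM in root with nickel and 34.8 CPM in root without nickel, belonged to a contig that was also lower in shoot, with 6.21 CPM with nickel and 159 CPM without.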

How the data were processed

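The deposited files give the read count of 1 library each on 65936 contigs, whole numbers without normalization per the file headers. The labels' protocols name TRIzol LS, DNase and a stranded Illumina TruSeq mRNA kit; the sources used here do not give the aligner, counting program or assembly (not stated). Contigs with 10 or more reads in either root library were kept; they held 99.9% of the reads of both root libraries. Library sizes were scaled by TMM (edgeR 4.0.16, R 4.3.3) over the 4 libraries, with factors of 1.11 for root with nickel, 1.00 for root without nickel, 1.04 for shoot with nickel and 0.867 for shoot without nickel. Log2 ratios used a prior count of 2. Intervals of ratios are exact conditional binomial (Clopper-Pearson). The counting-error spreads come from Poisson formulas, and the spread beyond them from the interquartile range. Even values outnumbered odd ones among low counts; if that comes from counting both mates of a pair, intervals, floors and counting-error amounts are too small. A floor of 3 reads was 0.049 CPM in root with nickel and 0.050 CPM in root without nickel. The size rules replace tests, since each group had 1 library. The calculations were checked on simulated Poisson counts, with large changes placed in well-covered contigs only. That check did not cover spread beyond counting error or changes in contigs of few reads. The comparison, abundance classes and rules were chosen with earlier results of these data known. The named contigs are, in each direction, that with the interval farthest from 1, given 100 or more reads over both root libraries, and that with the largest CPM difference past 2-fold. Alternatives were other scalings (total counts, DESeq2 1.42.0 size factors, TMM over the root libraries), filters, prior counts, fold sizes, abundance limits, halved counts and thinning.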

Additional observations from a re-analysis of the deposited data

Results flagged for a closer look

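These contigs stand out because nickel went with a higher level in one organ and a lower level in the other. The difference between root and shoot was not tested, for want of replicates, and in shoot it includes library origin. The root log2 ratio minus the shoot log2 ratio was 11.72 for Lhav_v2_contig_20894, which had no reads in one library of each organ, so that this value depends on the prior count. It was 2.19 for Lhav_v2_contig_20763 and -9.16 for Lhav_v2_contig_2671. In all, 85 abundant contigs were past 2-fold in both organs in opposite directions, 54 of them higher and 31 lower in root with nickel. Another 44 were past 2-fold the same way in both organs, 11 higher and 33 lower. For contigs lower in root, which way was more frequent depended on the scaling. Over all 13226 abundant contigs, 6.85% were past 2-fold lower and 3.01% past 2-fold higher in shoot with nickel.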

How the results depend on the processing

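Of 66 recalculations of the 7 results, 16 could not move, since read shares do not depend on the scaling and abundant contigs pass either read filter. Of the other 50, 37 stayed within 1.5 times a reported count or within the counting interval of a reported value. Only totals were compared, so a change of balance between directions counts as staying. By total counts the 337 abundant contigs past 2-fold became 331, but 114 higher and 223 lower became 171 and 160. The 44 past 2-fold the same way in shoot became 30, with 11 higher and 33 lower becoming 17 and 13. The 1454 contigs past 4-fold became 346 with a limit of 50 reads, under which fewer contigs entered, 659 with a prior count of 5, 404 at 8-fold and 668 with intervals from halved counts. The 337 abundant contigs past 2-fold became 63 at 3-fold and 21 at a mean of 100 CPM or more. The 8.20% of reads that differ became 8.10% with at least 50 reads and 8.23% without a filter. The median absolute log2 ratio of abundant contigs, 0.214, was 0.175 by total counts, 0.186 with TMM over the root libraries, 0.250 at 100 CPM or more, 0.209 with abundance from the shoot libraries and, added after the data were seen, 0.175 with the median ratio of abundant contigs set to 0 in each organ. Under that last setting, 171 abundant contigs were past 2-fold higher and 163 lower in root, and 72 of the 171 (42.1%) were lower in shoot. The named contigs were picked for the size of their ratio, so a kept sign says little of them; Lhav_v2_contig_7410 was short of 2-fold under the total-count, root-library and median scalings. No paired analysis was possible because each group had 1 library. Leaving out a replicate would remove a group. Without replicates, depth limits only the least abundant contigs, and variation between plantlets was not measured.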
